A study of Mus musculus with 267 samples.

Results

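Lpl, Fabp4, Fabp5, Angptl4 and Plin2 are 5 genes of lipid uptake and storage, chosen by name from the 55450 genes of the GENCODE vM21 annotation. No measured value entered the rule, but earlier results of these data were known when they were chosen. Chromatin at these genes was followed in mouse bone marrow-derived macrophages (BMDMs) before and after interleukin-4 (IL-4), by collecting every counted region and every reproducible transcription factor peak whose centre lay within 50 kb of a gene start in mm10. Lpl lies on the plus strand at chr8:68880491-68907448, Fabp4 on the minus strand at chr3:10204088-10208576, Fabp5 on the plus strand at chr3:10012548-10016607, Angptl4 on the minus strand at chr17:33773750-33781830 and Plin2 on the minus strand at chr4:86648386-86670060. The windows held 55 of 77955 regions in the C57 time course table, with 11 at Lpl, 7 at Fabp4, 11 at Fabp5, 11 at Angptl4 and 15 at Plin2. In the strain tables they held 48 of 67742 regions in C57, 38 of 54022 in BALB, 48 of 68932 in NOD, 43 of 60175 in PWK and 32 of 54755 in SPRET. A window also takes in regions of neighbouring genes, such as the Rab11b promoter 21.3 kb downstream of the Angptl4 start and regions near Haus6 and Dennd4c on either side of Plin2.

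The BMDMs were differentiated with M-CSF from bone marrow of mice aged 8 to 12 weeks, of 5 inbred strains, SPRET/EiJ (SPRET), BALB/cJ (BALB), PWK/PhJ (PWK), C57BL/6J (C57) and NOD/ShiLtJ (NOD). Cells of each strain were left untreated (basal) or were given 20 ng/mL IL-4 for 24 hours, and C57 cells also for 1 or 6 hours. In a separate set, BMDMs of Egr2 fl/fl mice and of LyzM-Cre Egr2 fl/fl mice were compared at basal and at 24 hours. Both genotypes carried the floxed Egr2 allele, and in the second the LyzM promoter drives Cre in myeloid cells. The deletion is thus targeted to myeloid cells and does not depend on IL-4. The study reports that Egr2 was efficiently deleted in these BMDMs. Egr2 RNA was not measured in the libraries used here and EGR2 binding was not measured in these genotypes, so the deletion itself was not checked here. Histone mark groups held 2 libraries, RNA polymerase II (Pol II) groups held 2 to 4, and the Pol II groups at 1 hour and in the Egr2 genotypes held 1 library each. The study's methods speak of biological replicates, and the labels give a replicate number without naming an animal, so p-values measure the spread between these libraries.

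Lipoprotein lipase, the product of Lpl, releases fatty acids from circulating triglycerides so that cells can take them up, and the secreted protein encoded by Angptl4 inhibits it. The fatty acid binding proteins encoded by Fabp4 and Fabp5 carry fatty acids inside the cell, and perilipin 2, encoded by Plin2, coats the lipid droplets in which they are stored. PPARg is a nuclear receptor that responds to fatty acids, binds DNA with RXR at paired half-sites of the direct repeat 1 (DR1) type, and is well known for driving fat storage genes in adipocytes and for its induction by IL-4 in macrophages.

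The 155 libraries with per-region values held 4691644 to 29050468 tags. Values were scaled to 10000000 tags per library, so 1 normalized tag, called a tag from here on, stood for 0.469 to 2.91 reads. Promoters of the 6 macrophage markers Spi1, Csf1r, Adgre1, Cd68, Lyz2 and Itgam all carried H3K27ac in C57, with a summed level of 3855 to 3995 tags at basal and 1798 to 1820 tags at 24 hours. Of 6 adipocyte markers 1 had a counted promoter in C57, Plin1, at 0.71 to 1.36 tags at basal, and none of 3 T cell markers had a counted promoter. The summed level of the 3 dendritic cell markers Itgax, Zbtb46 and Flt3 was higher with IL-4 in C57, at 65.6 to 77.4 tags at basal and 270 to 277 at 24 hours. Of the 3 promoters 2 stayed under 16 tags, so the higher sum lay mostly at 1 promoter. In BALB, NOD, PWK and SPRET, where Flt3 had no counted promoter, the sum of Itgax and Zbtb46 was also higher at 24 hours, without overlap (in NOD 80.6 to 114 then 393 to 429). Of B cell markers 2 of 3 had a counted promoter in C57, at 86.2 to 95.6 then 31.4 to 57.8 tags, and of 3 neutrophil markers S100a8, at 19.3 to 55.6 then 39.4 to 40.7. At basal S100a8 had 94.7 to 250 tags in BALB, 124 to 353 in NOD, 97.1 to 232 in PWK and 106 to 122 in SPRET. Of 3 fibroblast markers Col1a1 had one, with at most 2.55 tags. The part of these cell types in the results was not tested. The share of H3K27ac tags that fell inside counted regions was also lower after IL-4, for example 59.6 to 65.4% at basal and 38.2 to 43.2% at 24 hours in C57, and the part of this shift in the H3K27ac results below was not tested. In such bulk material, fewer cells carrying a mark and less of the mark per cell cannot be told apart.

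PPARg peaks near the 5 genes merged to 64 sites over the 10 lists of 5 strains and 2 conditions. The DR1 repeat, a pair of half-sites AGGTCA with 1 free base between them, was searched on both strands in 200 bp around each site centre with up to 2 mismatches in its 12 fixed letters. It was found at 7 of the 64 sites (10.9%). The same search found it in 10.8% of all 24-hour PPARg peaks of C57, in 23.6% of the 1000 strongest of these, and in 3.02% of all regions of the C57 time course table. The 7 sites are shown from the mm10 reference because they hold the closest matches to the PPARg element near these genes. The 13 matched bases are in capitals and the sequences are not those of the other strains.
Angptl4, 2.5 kb downstream of the start, chr17:33779289-33779317 plus strand: gggaaagtAGGAGAAAGGTCActggggga
Angptl4, 14.6 kb upstream, chr17:33796451-33796479 plus strand: ggaaaactGGGTCAAAGGTGAtgcatgtt
Plin2, 1.9 kb upstream, chr4:86671983-86672011 minus strand: ccttttgtAGGTGAAAGGGCAaagaaaga
Fabp4, 3.6 kb upstream, chr3:10212226-10212254 minus strand: gacaaagtAGGTCACAGTTTAtctgcaga
Fabp4, 2.0 kb downstream, chr3:10206473-10206501 plus strand: taaaatctAAGTCAAAGGCCAggcctcac
Lpl, 20.1 kb downstream, chr8:68900556-68900584 plus strand: ttaacattAAGGCAAAGGTCAtgggagtt
Lpl, 26 kb downstream, chr8:68906523-68906551 plus strand: tgtaatatAGGACAAAGGTGAccgatttc
Up to 3 mismatches were found at 25 of the 64 sites, in 34.6% of all 24-hour PPARg peaks of C57 and in 19.6% of all regions of the C57 time course table. Of sites whose closest match had 3 mismatches, 1 of Fabp4 and 1 of Plin2 are shown, both present in all 10 lists.
Fabp4, 5.4 kb upstream, chr3:10213923-10213951 plus strand: ccagtaagAAGGCAAATGTCAggcatctg
Plin2, 42.7 kb upstream, chr4:86712711-86712739 plus strand: atgaaattAGGTCAAAGAGGAaatctaaa
The site with the highest PPARg count of all, 20.3 kb upstream of Plin2, had no match closer than 5 mismatches, and the strongest Lpl site, 34.3 kb downstream, none closer than 4. A match is a description of letters in this window and says nothing by itself about binding.

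PPARg peaks near the lipid genes were more numerous at 24 hours than at basal in all 5 strains. Their number went from 14 to 36 in C57, from 8 to 24 in BALB, from 18 to 30 in NOD, from 24 to 38 in PWK and from 19 to 22 in SPRET, a sum of 83 at basal and 150 at 24 hours. Each list stood for a whole group, so these counts have no replicate error and no test. The lists themselves differed in length. C57 went from 7627 to 39088 peaks, BALB from 6524 to 23578, NOD from 12529 to 40426 and PWK from 18402 to 46415, while SPRET went from 19684 to 18487. Per 10000 peaks of a list, the lipid genes had fewer at 24 hours in 4 of the 5 strains, with 18.4 then 9.21 in C57, 12.3 then 10.2 in BALB, 14.4 then 7.42 in NOD and 13 then 8.19 in PWK. In SPRET the rate was higher at 24 hours, with 9.65 then 11.9. With both lists of a strain limited to the same length by strength, the sums were 82 and 92. Then PWK went from 24 to 20 peaks, while C57 went from 14 to 17, BALB from 8 to 12, NOD from 18 to 21 and SPRET from 18 to 22.

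Peaks already present at basal were mostly found again after IL-4. All 14 basal peaks in C57 and all 8 in BALB overlapped a 24-hour peak, as did 16 of 18 in NOD, 20 of 24 in PWK and 14 of 19 in SPRET, against 82.2%, 76.2%, 82.9%, 75.6% and 57.4% of all basal peaks of the same strains. The peak tag count is the number of tags the authors give for a peak, 1 value per list, and its scale between lists is not stated in the sources used here, so ratios between lists are read against those of all peaks and beside ranks. It was higher at 24 hours for 12 of 14 overlapping pairs in C57, with a median ratio of 2.09 beside 1.94 for all pairs. In BALB it was higher for 8 of 8 pairs, with a median ratio of 2.23 beside 1.40, and in NOD for 14 of 16, with 2.28 beside 2.13. In PWK it was higher for 14 of 20 pairs, with 1.12 beside 1.31, and in SPRET for 12 of 14, with 1.22 beside 1.18.

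**Figure D1:**
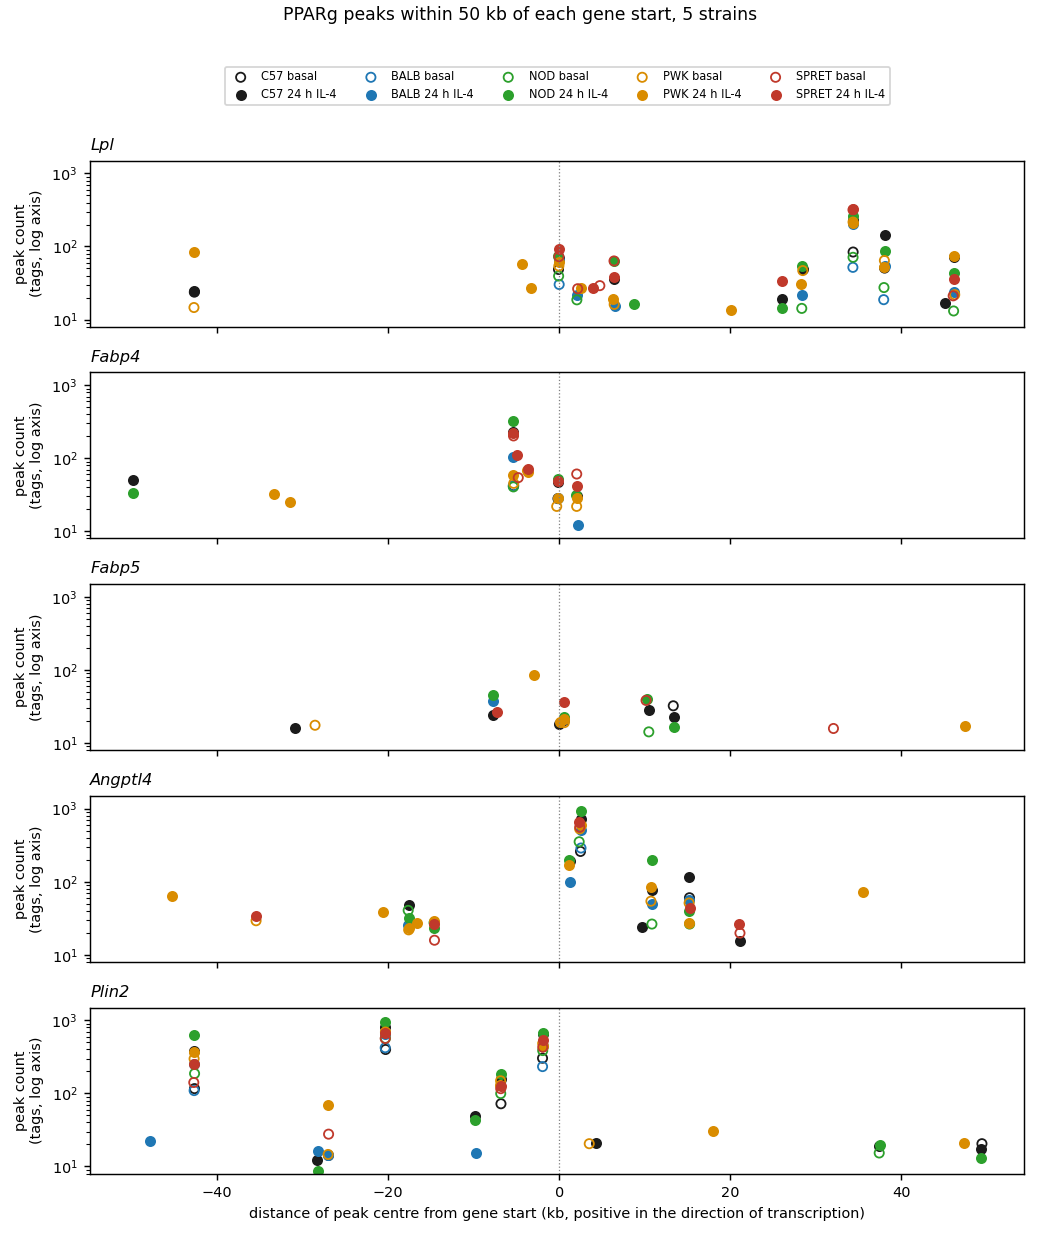
Peak tag count (log axis) of each reproducible PPARg peak against its distance in kb from the start of Lpl, Fabp4, Fabp5, Angptl4 or Plin2, with strains in colours, open symbols for basal and filled symbols for 24 hours of IL-4. The Plin2 peak 20.3 kb upstream stands highest in every strain and condition, and the Fabp5 panel holds no peak above 86.2.

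Of the 64 sites, 7 were present in all 10 PPARg lists (10.9%, against 2.53% of the 90549 merged PPARg sites of the genome) and 26 in a single list (40.6% against 49.6%). Plin2 held 3 of the 7, Lpl held 2, Fabp4 and Angptl4 held 1 each, and Fabp5 held none. The site 20.3 kb upstream of the droplet coat gene Plin2 was among the strongest in the genome, with a count of 400 at basal and 820 at 24 hours in C57, which ranked 7 of 7627 and 5 of 39088. Its counts were 423 then 642 in BALB (ranks 4 and 3), 568 then 942 in NOD (2 and 2), 694 then 701 in PWK (6 and 3), and 565 then 666 in SPRET (29 and 34). A further Plin2 site 1.9 kb upstream, which holds the DR1 match shown above, went from 304 to 645 in C57, from 233 to 446 in BALB and from 386 to 681 in NOD, but was 484 and 446 in PWK and 429 and 533 in SPRET. Both sites had a higher count at 24 hours in 4 of the 5 strains, and in PWK the site nearer the start did not.

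At Angptl4, the LPL inhibitor, a single strong site lay 2.5 kb downstream of the start, inside the gene. Its count was 260 at basal and 721 at 24 hours in C57 (ranks 28 and 10), 289 then 514 in BALB (16 and 11), 352 then 938 in NOD (22 and 3), 529 then 590 in PWK (28 and 8), and 557 then 664 in SPRET (31 and 35). The ranks come from lists of unequal length in every strain but SPRET, where the lists were of similar length and the rank did not move up. Another Angptl4 site, 1.1 kb downstream, appeared only in 24-hour lists, of 4 strains, and the site 14.6 kb upstream with the DR1 match was listed only in NOD, PWK and SPRET.

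Lpl had up to 11 PPARg peaks, and its strongest site lay 34.3 kb downstream of the start, beyond the end of the gene. There the count went from 84.0 to 233 in C57, from 51.8 to 204 in BALB and from 71.1 to 260 in NOD, while PWK had 216 and 213 and SPRET 318 and 325. At the Lpl promoter the count was lower, and at 24 hours it was highest in SPRET, which had 72.6 then 92.0, with 39.4 then 74.5 in NOD, 48.5 then 70.4 in C57, 30.2 then 65.8 in BALB and 54.1 then 61.3 in PWK.

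The carrier genes differed from each other. Fabp4 had a site 5.4 kb upstream whose count went from 42.0 to 229 in C57, from 41.7 to 105 in BALB, from 40.5 to 326 in NOD and from 45.3 to 59.4 in PWK. In SPRET the same site stood at 202 at basal and 220 at 24 hours. A site 3.6 kb upstream of Fabp4 with a DR1 match was listed only in PWK, at 67.2 and 65.1, and in SPRET at 24 hours. Fabp5 was nearly without strong sites: its highest 24-hour count was 28.5 in C57, ranking 13321 of 39088, and 37 in BALB, 46.0 in NOD, 86.2 in PWK and 36.3 in SPRET.

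The strongest sites also differed in the other factors listed there. The lists of PU.1, the lineage factor of macrophages, and of CEBPb, which often binds beside it, were compared with those of STAT6, the factor that IL-4 activates directly, and of EGR2, a factor induced by IL-4, with 10 lists each. The Plin2 site 20.3 kb upstream overlapped a peak in all 10 PU.1, all 10 CEBPb, 6 EGR2 and all 10 STAT6 lists, and the Lpl site 34.3 kb downstream in 10, 10, 8 and 10. The Angptl4 site 2.5 kb downstream overlapped 6 PU.1, 0 CEBPb, 2 EGR2 and 4 STAT6 lists. The Fabp4 site 5.4 kb upstream, and an Angptl4 site 15.2 kb downstream, overlapped none of these 40 lists. Peak lists end at a threshold, so an absent peak does not show absent binding.

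H3K27ac, a mark of active promoters and enhancers, was compared between 24 hours and basal in each strain with limma on log2(tags + 1) and Benjamini-Hochberg adjustment over all regions of the table. No region of the 5 genes passed an adjusted p of 0.05 in any strain, where 0.0% of all regions were called in C57, 2.26% in BALB, 0.0566% in NOD, 0.535% in PWK and 1.19% in SPRET. At an unadjusted p under 0.05 there were 16 of 48 in C57, 2 of 38 in BALB, 2 of 48 in NOD, 1 of 43 in PWK and 3 of 32 in SPRET, beside 22%, 11.9%, 12.4%, 10.6% and 12.2% of all regions. edgeR and DESeq2 on the recovered reads also called 0. Same-numbered H3K27ac libraries deviated together (r = 0.507 to 0.729), and these fits left that out. With the replicate number as a block, limma called 24 of 48 in C57, 0 of 38 in BALB and 6 of 48 in NOD. It also called 2 of 43 in PWK and 2 of 32 in SPRET. Over all regions it called 25757 of 67742, 4142 of 54022, 13739 of 68932, 5648 of 60175 and 3850 of 54755, in the same order. The median log2 change at the lipid genes was -0.48 in C57, -0.39 in BALB, -0.15 in NOD, -0.25 in PWK and 0.18 in SPRET, beside -0.28, -0.30, -0.20, -0.18 and -0.09 for all regions. The strain tables were built on separate region sets, so differences between strains were not tested.

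H3K27ac values at a Fabp4 region were higher at 24 hours without overlap in 4 of the 5 strains, with no call by limma. The region 4.9 kb upstream held the centre of the PPARg site 5.4 kb upstream near its edge. An EGR2 peak 4.9 kb upstream lay nearer its middle, with means of 20.7 tags at basal and 36.8 at 24 hours in C57, not called. The part of either factor in the values was not tested. In this region C57 had 25.8 and 48.5 tags at basal and 83.2 and 108 tags at 24 hours, BALB 42.9 and 50.0 then 84.8 and 138, and NOD 34.9 and 53.2 then 72.3 and 145. In these 3 strains, and in SPRET with 89.8 and 98.8 then 116 and 241, both 24-hour libraries were above both basal ones. In PWK the groups overlapped, at 32.6 and 61.1 then 43.8 and 77.3. The log2 change was 1.40 in C57 (adjusted p = 0.169), 1.21 in BALB (0.496), 1.23 in NOD (0.404), 0.37 in PWK (0.877) and 0.82 in SPRET (0.403), all by limma and none called. With median-ratio scaling, which sets the middle region of each table to no change, only BALB was called there, at 1.54 with an adjusted p of 0.032. A second Fabp4 region, 38.7 kb upstream, went from a mean of 11.4 to 36.5 tags in C57.

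Values at the strongest PPARg site of Plin2 lay the other way. In the region 20.4 kb upstream, H3K27ac was 324 and 459 tags at basal and 195 and 240 tags at 24 hours in C57, 294 and 406 then 161 and 265 in BALB, and 399 and 460 then 299 and 306 in NOD. SPRET also had lower 24-hour values, at 187 and 199 tags, while PWK overlapped, at 302 and 368 then 270 and 368. The log2 change was -0.83 in C57, -0.74 in BALB, -0.50 in NOD, -0.55 in SPRET and -0.08 in PWK, where it was 0.13 with median-ratio scaling. None was called, with adjusted p-values of 0.214 in C57, 0.825 in BALB, 0.605 in NOD and 0.57 in SPRET by limma. The PPARg peak count there was 2.05 times its basal value in C57, 1.52 in BALB, 1.66 in NOD, 1.01 in PWK and 1.18 in SPRET, beside median ratios of 1.94, 1.40, 2.13, 1.31 and 1.18 for all pairs of the same lists. Its rise was thus near that of all pairs in C57, BALB and SPRET and below it in NOD and PWK.

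**Figure D2:**
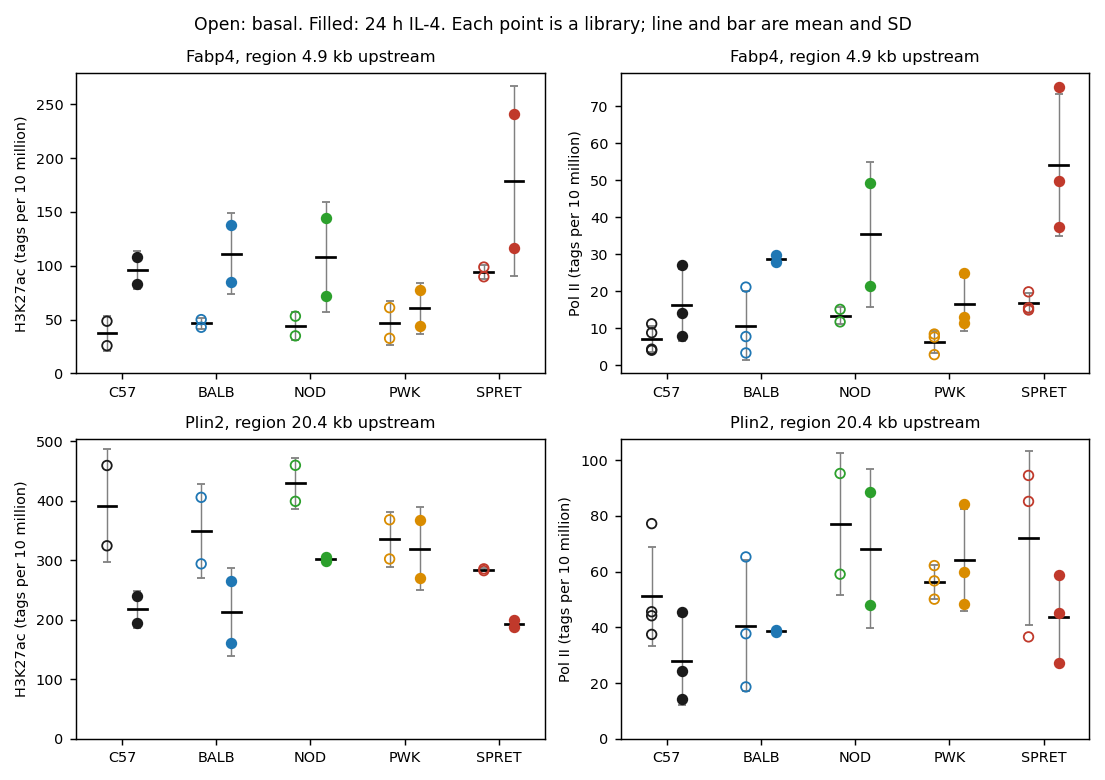
H3K27ac and Pol II tags per 10000000 at the Fabp4 region 4.9 kb upstream and the Plin2 region 20.4 kb upstream, in 5 strains, with open symbols for basal libraries, filled symbols for 24 hours of IL-4 and bars for the mean and SD. Fabp4 H3K27ac lies higher at 24 hours without overlap in all strains but PWK, where the groups overlap and the 24-hour mean is the higher. Fabp4 Pol II lies higher without overlap in all strains but C57. Plin2 H3K27ac lies lower in C57, BALB, NOD and SPRET.

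The Plin2 promoter had lower H3K27ac values in the same direction. It carried 731 and 837 tags of H3K27ac at basal and 382 and 466 at 24 hours in C57, 589 and 714 then 431 and 558 in NOD, and 535 and 592 then 367 and 463 in SPRET, while BALB and PWK overlapped. Counting regions in which both 24-hour libraries lay below both basal ones, Plin2 had 10 of 14 in C57, 4 of 10 in BALB, 7 of 15 in NOD, 0 of 9 in PWK and 5 of 6 in SPRET. Over all 5 genes these were 18 of 48 in C57, 8 of 38 in BALB, 13 of 48 in NOD, 7 of 43 in PWK and 5 of 32 in SPRET, beside 34.8%, 28.8%, 27.6%, 25.3% and 23.9% of all regions, so that the shares of the lipid genes were near or below the background. In the upward direction they were 8, 2, 5, 1 and 7, beside 18.8%, 13%, 16.6%, 14.6% and 18.2%, and Fabp4 accounted for 3 of 6, 2 of 5, 2 of 5, 0 of 5 and 3 of 4 of its own regions.

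Lpl and Angptl4 did not follow a single direction. The Lpl promoter had 229 and 270 tags of H3K27ac at basal and 132 and 139 at 24 hours in C57 (log2 change -0.87, adjusted p = 0.196 by limma), and 232 and 246 then 131 and 203 in PWK, with overlap in the other strains. At the Lpl region 34.2 kb downstream SPRET had 204 and 339 then 358 and 517 tags. The Angptl4 promoter was lower in BALB, at 45.6 and 90.6 then 21.1 and 34.3 tags, and the Angptl4 region at the strong PPARg site 2.4 kb downstream overlapped between conditions in every strain.

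Some regions passed the fold rule, a description that asks for group means at least 2.5-fold apart with at least 16 tags (8 for Pol II) in either group. For H3K27ac, the Fabp4 regions 4.9 and 38.7 kb upstream were higher by this rule in C57, as were 3.46% of all regions, against 7.55% lower. A region 28.5 kb upstream of Fabp5 was lower in NOD, from 39.4 to 9.13 tags, and in PWK, from 62.2 to 15.3, with 5.14% and 3.01% of all regions lower. Regions downstream of the Plin2 start near its neighbour were lower in C57 at 49.4 kb, from 116.6 to 38.5 tags, and in NOD at 44.5 kb, from 35.8 to 12.1.

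Pol II, which marks transcribed and poised regions, rose at 2 regions of the lipid genes, both in SPRET, where 1.05% of all regions were called and 0.782% were called higher. At the Fabp4 region 4.9 kb upstream the 3 SPRET basal libraries lay between 14.9 and 19.8 tags and the 3 libraries at 24 hours between 37.5 and 75.2, a log2 change of 1.59 ± 0.31 (SE) with an adjusted p of 0.0383 by limma. At the Lpl region 45.9 kb downstream the mean went from 13.6 to 54.4 tags, a log2 change of 1.94 ± 0.28 (SE) with an adjusted p of 0.0095. The Fabp4 call was lost on leaving out any of the 6 SPRET libraries (adjusted p 0.068 to 0.161), and the Lpl call on leaving out 24-hour replicate 1 or 2 (up to 0.0796). No lipid gene region was called in C57, BALB, NOD or PWK, where 0.319%, 0.707%, 0.0% and 1.72% of all regions were, while the unadjusted p was under 0.05 at 2, 3, 5 and 5 regions, beside 8.82%, 7.62%, 7.65% and 12% of all regions. In these strains DESeq2 called 1 region, in C57, where it called 861 of all 67742, and edgeR 0.

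Same-numbered Pol II libraries of SPRET and PWK deviated together, and a fit with the replicate number as a block called 12 of 32 lipid gene regions in SPRET, beside 8.39% of all regions, and 5 of 43 in PWK, beside 9.78%. With the block, the Fabp4 region 4.9 kb upstream had an adjusted p of 0.002 in SPRET and 0.015 in PWK, where basal libraries spanned 2.82 to 8.39 tags and 24-hour libraries 11.5 to 24.8. The Fabp4 promoter in SPRET went from 33.9 to 49.5 tags at basal to 71.1 to 148 tags at 24 hours, a log2 change of 1.32 with an adjusted p of 0.0645 without the block and 0.002 with it by limma. Also with the block, Pol II at the Plin2 promoter of SPRET was lower, at 321 to 511 then 234 to 297 tags (log2 change -0.51, adjusted p = 0.380 without and 0.041 with it). The Fabp5 promoter of PWK was likewise lower, at 357 to 473 then 186 to 303 tags (adjusted p = 0.265 without and 0.031 with the block).

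In the other strains, Pol II at the Fabp4 region 4.9 kb upstream was 4.01 to 11.1 tags at basal and 7.74 to 26.9 at 24 hours in C57, 3.28 to 21.1 then 27.8 and 29.8 in BALB, and 11.7 and 15.1 then 21.5 and 49.3 in NOD. Only C57 overlapped, and the log2 changes were 1.04 (adjusted p = 0.610), 1.67 (0.351) and 1.24 (0.612) by limma. In BALB all regions together had a median log2 change of 0.32, so that the change at Fabp4 was 1.35 above it. A Lpl region 46.0 kb downstream, close to the one called in SPRET, passed the fold rule in BALB with means of 13.4 and 35.3 tags, as did 5.91% of all regions. The Plin2 region 47.3 kb upstream passed it in NOD with 22.3 and 62.8 tags (adjusted p = 0.33), as did 2.35% of all regions.

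Lipid gene regions showed no call for H3K4me2 or H3K4me3, marks of open regulatory regions and of active promoters, by limma. Called shares over all regions were 0.236% in C57, 0.0111% in BALB, 0.189% in NOD, 0.314% in PWK and 0.0% in SPRET for H3K4me2, and 0.0%, 0.0%, 0.0203%, 0.0349% and 0.0% for H3K4me3. Unadjusted p-values under 0.05 numbered 18, 0, 4, 1 and 12 for H3K4me2, beside 34%, 1.87%, 8.37%, 4.79% and 32.4% of all regions. For H3K4me3 they numbered 9, 2, 3, 0 and 2, beside 19.5%, 6.31%, 5.41%, 4.75% and 6.17%. edgeR called 0 for both marks, and DESeq2 called 0 for H3K4me3. For H3K4me2 DESeq2 called 3 of 48 regions in C57, beside 8792 of all 67742. With the replicate block, H3K4me2 had 12 of 32 called in SPRET, beside 16722 of 54755. H3K4me3 had 11 of 48 in C57, 1 of 38 in BALB and 9 of 43 in PWK. Over all regions these were 11526 of 67742, 1622 of 54022 and 10348 of 60175. By the fold rule H3K4me2 was lower at the Fabp5 promoter of C57, with means of 134.7 and 52.1 tags (adjusted p = 0.102), as at 1.27% of all regions, where all regions had a median log2 change of -0.69.

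In the C57 time course, H3K27ac at Plin2 and Angptl4 fell within 1 hour of IL-4, and values at 24 hours lay nearer to basal. The 3 IL-4 times were compared with the same 2 basal libraries, and the 24-hour libraries are the C57 libraries described above. At 1 hour 16 of the 55 lipid gene regions were called lower and 0 higher by limma, 11 at Plin2 and 5 in the Angptl4 window, 2 of these at Rab11b, where 9.72% of all regions were called and 8.36% were called lower. The median log2 change was -1.09 at the lipid genes and -0.63 over all regions. At 6 hours 1 region was called lower, 37.4 kb downstream of the Plin2 start near Haus6 (means of 33.2 and 3.53 tags, adjusted p = 0.0493), where 5.13% of all regions were called. At 24 hours 0 were called, where 1.45% of all regions were. There the unadjusted p was under 0.05 at 6 regions, beside 17.1% of all regions, and neither edgeR nor DESeq2 made a call (0 each).

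At Plin2, 11 regions were called lower at 1 hour. The region 6.9 kb upstream had 282 and 282 tags at basal, 41.7 and 36.5 at 1 hour, 74.7 and 119 at 6 hours and 113 and 142 at 24 hours, a log2 change at 1 hour of -2.82 with an adjusted p of 0.0116 by limma. At the region with the DR1 match 1.9 kb upstream the values were 423 and 650, then 96.6 and 71.3, then 186 and 220, then 228 and 299 (-2.65, adjusted p = 0.0145). The promoter went through 834 and 727, 214 and 123, 257 and 352, and 464 and 375 tags (-2.25, adjusted p = 0.0260), and the region 20.4 kb upstream through 330 and 472, 93.5 and 71.6, 135 and 187, and 196 and 242 (-2.26, adjusted p = 0.0221). At each of these regions all 6 libraries with IL-4 were below both basal libraries. Relative to the median of all regions at 1 hour, the promoter changed by -1.62 on the log2 scale.

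At the Angptl4 region 2.4 kb downstream, over the strongest PPARg site of the gene, the 2 basal libraries themselves were far apart, at 23.1 and 126 tags. At 1 hour they stood at 0.8 and 8.3, at 6 hours at 8.5 and 37.1, and at 24 hours at 34.8 and 132. The log2 change at 1 hour was -3.77 ± 0.89 (SE) with an adjusted p of 0.0206 by limma, and with median-ratio scaling the adjusted p was 0.122. The Angptl4 promoter had 32.6 and 140, 15.5 and 11, 23.1 and 57.8, and 34.8 and 108 tags in the same order.

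The 1-hour libraries also differed from the others in composition. The share of tags inside counted regions was 63.8 to 69.7% at basal, 44.0% and 20.5% in the 1-hour replicates 1 and 2, 50.2 to 51.0% at 6 hours and 41.2 to 46.4% at 24 hours, and the summed H3K27ac of the 6 macrophage marker promoters was 3520 to 3627, 712 to 1667, 1870 to 2126 and 1661 to 1663 tags. Their part in the 1-hour result was not tested. With median-ratio scaling 5 of the 16 lower calls at 1 hour were made. Over both times, 17 calls became 0 without basal replicate 2, 11 without basal replicate 1, 36 without 1-hour replicate 1 and 4 without either 6-hour replicate. Regions in which both 1-hour libraries lay below both basal ones numbered 32 of 55, beside 42.6% of all regions.

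Lpl and the carriers took other courses. The Lpl promoter had 230 and 275 tags at basal, 78.8 and 78.8 at 1 hour, 153 and 96.8 at 6 hours and 139 and 131 at 24 hours, while the region 34.2 kb downstream had 181 and 434, 189 and 125, 233 and 145, and 156 and 240, with overlap. The Fabp4 region 4.9 kb upstream was at 23.8 and 48.5 tags at basal, 18.6 and 14.1 at 1 hour, 42.4 and 42.6 at 6 hours and 83.2 and 113 at 24 hours, so it went down and then above its basal level. The Fabp4 promoter went from 61.7 and 38.5 tags to 117 and 93.1 at 6 hours and 64.5 and 73.5 at 24 hours, with 101 and 19.3 at 1 hour. The Fabp4 region 38.7 kb upstream was highest at 6 hours, at 53.1 and 62.1 tags against 14.9 and 7.8 at basal (log2 change 2.30, adjusted p = 0.0665 by limma).

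**Figure D3:**
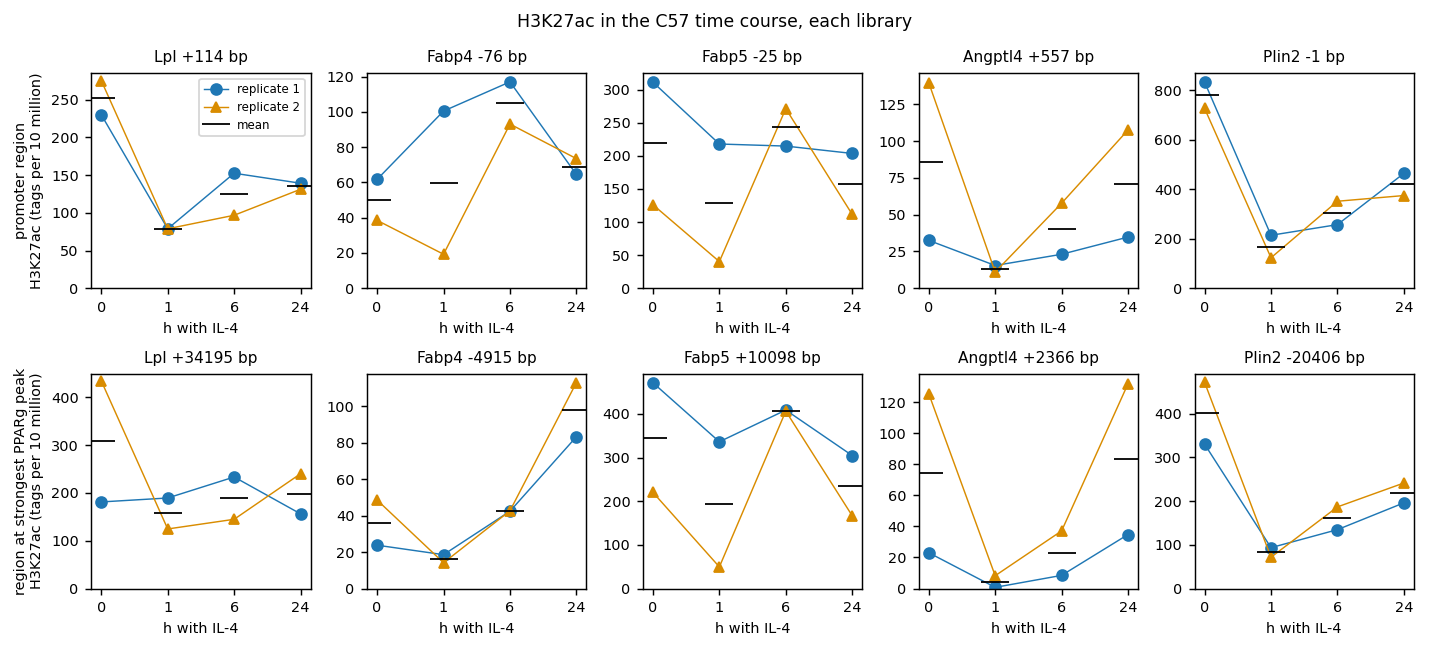
H3K27ac tags per 10000000 in C57 at 0, 1, 6 and 24 hours of IL-4 at the promoter (upper row) and at the region of the strongest PPARg peak (lower row) of each gene, with circles for replicate 1, triangles for replicate 2 and bars for the mean. Plin2 falls from 834 and 727 tags to 214 and 123 at its promoter, while the Fabp4 region reaches 83.2 and 113 tags at 24 hours.

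Fabp5 stood apart through its replicates. Its promoter had 311 and 126 tags of H3K27ac in basal replicates 1 and 2, 218 and 40.3 at 1 hour, 215 and 271 at 6 hours and 204 and 112 at 24 hours, and Pol II there was 784, 741, 213 and 160 tags in the 4 basal libraries. The median log2 ratio of H3K27ac in replicate 1 over replicate 2 at Fabp5 regions was 1.09 at basal and 0.86 at 24 hours in C57, 1.34 then 1.99 in BALB, 1.61 then 0.95 in NOD, 0.63 then 1.17 in PWK, and 0.94 then 1.63 in SPRET. The medians over all regions were 0.07 and 0.06, 0.16 and 0.67, 0.12 and 0.22, -0.05 and 0.19, and -0.03 and 0.20. Replicate 1 was thus the higher in all 10 strain and condition pairs at Fabp5, by more than the middle region of the same libraries. Lpl regions tilted the other way at basal, with -0.54 in C57, -0.79 in BALB, -1.05 in NOD, -0.08 in PWK and -0.73 in SPRET. The source of this split was not tested.

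**Figure D4:**
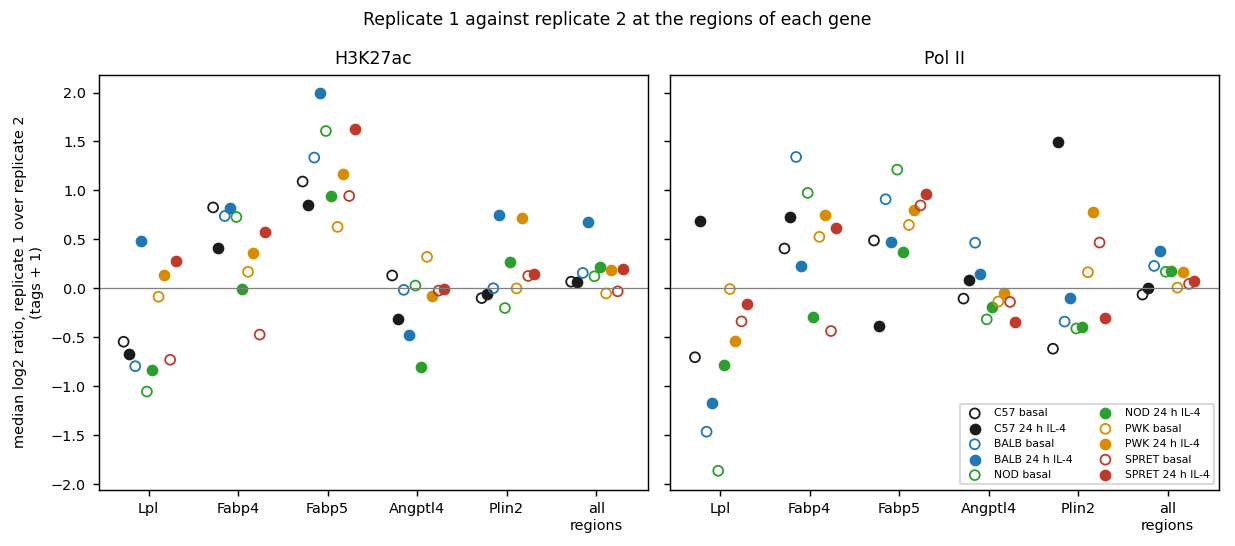
Median log2 ratio of replicate 1 over replicate 2 in tags at the regions of each gene and at all regions, for H3K27ac and Pol II, per strain and condition. Fabp5 lies above 0 for H3K27ac in every strain and condition, from 0.63 to 1.99.

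Pol II in the C57 time course gave 1 call at the lipid genes at 24 hours, where 0.677% of all regions were called. At the Fabp4 region 38.7 kb upstream the 4 basal libraries had 4.4, 3.2, 1.6 and 0.0 tags, the 1-hour library 7.6, the 6-hour libraries 16.4 and 11.7, and the 24-hour libraries 12, 23.2 and 11.5 (log2 change 2.51 ± 0.56 SE at 24 hours, adjusted p = 0.0450 by limma). All libraries with IL-4 were above all basal ones, at low levels. The call was lost on leaving out 8 of the 9 replicated libraries, all but basal replicate 1, and with a filter of 16 tags. At 6 hours 0 regions were called by limma, where 0.566% of all regions were. There the unadjusted p was under 0.05 at 9 regions, beside 10.2% of all regions. DESeq2 called 1, beside 1236 of all 77955, and edgeR 0.

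The Pol II promoter levels of the lipid genes spread widely between basal libraries. Lpl had 203, 351, 786 and 742 tags at basal, 133 at 1 hour, 182 and 191 at 6 hours and 237, 160 and 605 at 24 hours. Fabp4 had 180, 153, 60.0 and 27.3, then 124, then 135 and 181, then 175, 101 and 85.9. Plin2 had 323, 585, 741 and 487, then 102, then 151 and 411, then 538, 314 and 511, so that its single 1-hour library lay below every other one. Angptl4 was low throughout, at 36.2, 21.7, 64.8 and 49.6, then 16.2, then 19.2 and 34.6, then 23.3, 20.0 and 66.7 tags.

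EGR2 peaks of the C57 time course included 23 near the lipid genes, of 30675, with 6 at Lpl, 2 at Fabp4, 3 at Fabp5, 6 at Angptl4 and 6 at Plin2. No site was called at any time, and neither was any of the 30675 (0.0%) by limma, with edgeR and DESeq2 also calling 0 at the lipid genes and 1, 2 and 1 sites at an unadjusted p under 0.05 at 1, 6 and 24 hours, beside 3.54%, 3.81% and 3.38% of all sites. The median log2 change at the lipid genes was -0.80 at 1 hour, 0.28 at 6 hours and 0.85 at 24 hours, beside -0.59, 0.17 and 0.66 for all EGR2 peaks. The C57 peak list at 24 hours held 22 EGR2 peaks near the lipid genes and the basal list held 7. A higher value at 24 hours is therefore not independent of how the peaks were listed. By the fold rule 6 of 23 were higher at 24 hours, where 10.4% of all peaks were. The strongest was 42.6 kb upstream of Plin2, with 69.3 and 105 tags at basal, 279 and 230 at 6 hours and 277 and 162 at 24 hours (adjusted p = 0.838 at 24 hours). At Angptl4 the sites 1.2 and 2.4 kb downstream went from means of 30.3 to 77.9 and from 9.35 to 32.4 tags, and at Lpl the site 0.9 kb downstream from 6.64 to 20.1.

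The Egr2 genotypes were compared at 4677 sites that the authors had chosen as EGR2 peaks induced by 24 hours of IL-4. A change with IL-4 at them is therefore not independent of that choice. Of these, 6 lay near the lipid genes, with 2 each at Lpl, Angptl4 and Plin2 and none at Fabp4 or Fabp5. H3K27ac at 24 hours fell in LyzM-Cre Egr2 fl/fl cells at 2 of the 6, where 24.7% of all sites were called and 23.2% were called lower by limma. At the Plin2 site 16.7 kb upstream Egr2 fl/fl cells had 121.6 and 129.7 tags and LyzM-Cre Egr2 fl/fl cells 53.0 and 80.1 (log2 change -0.94 ± 0.26 SE, adjusted p = 0.0155). At the Lpl site 31.3 kb downstream they had 135.7 and 144.5 and 46.8 and 90.0 tags (-1.10 ± 0.33 SE, adjusted p = 0.0241). The groups did not overlap at either site. All 6 sites had a lower mean, with a median of -1.02 beside -0.50 over all sites. With median-ratio scaling neither was called, at -0.40 (adjusted p = 0.253) and -0.56 (0.225). Both calls were also lost without either 24-hour Egr2 fl/fl replicate or without 24-hour LyzM-Cre Egr2 fl/fl replicate 1 (adjusted p up to 0.160 and 0.269). Same-numbered libraries deviated together here too, and a fit with the replicate number as a block called 4 of the 6 lower, beside 32.1% of all sites. These were the Plin2 site (adjusted p = 0.0056), the Lpl site 31.3 kb downstream (0.0011), the Lpl site 0.9 kb downstream (0.0059, -0.53) and the Angptl4 site 2.4 kb downstream (0.0328, -1.42).

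IL-4 raised H3K27ac in Egr2 fl/fl cells at 2 Plin2 sites, where 28.1% of all sites were called by limma. The site 39.6 kb upstream went from 64.8 and 69.9 to 102.5 and 147.7 tags (0.86, adjusted p = 0.0267), and the site 16.7 kb upstream from 84.4 and 61.1 to 121.6 and 129.7 (0.80, adjusted p = 0.0305). In LyzM-Cre Egr2 fl/fl cells 0 of 6 were called by limma, edgeR or DESeq2, where limma called 18.5% of all sites, and 2 of the 6 had an unadjusted p under 0.05, beside 28.9% of all sites. With the replicate block both Plin2 calls in Egr2 fl/fl cells were made (adjusted p = 0.0022 and 0.0126), beside 35.4% of all sites. In LyzM-Cre Egr2 fl/fl cells it called 2 of the 6, beside 24.7%. There the Plin2 site 39.6 kb upstream was higher, from 52.2 and 73.4 to 75.9 and 116 tags (0.59, adjusted p = 0.0302), and the Lpl site 0.9 kb downstream was lower, from 273.8 and 463 to 143 and 299 tags (-0.78, adjusted p = 0.0003). With median-ratio scaling the count turned round, with 0 calls in Egr2 fl/fl cells and 1 in LyzM-Cre Egr2 fl/fl cells, that Lpl site (-0.95, adjusted p = 0.0428), beside 19.5% of all sites. The interaction of genotype and IL-4 was called at 0 of the 6 and 0 of the 4677 sites by all 3 tools, with 0 of the 6 at an unadjusted p under 0.05, beside 13.1% of all sites. With the block it was called at 0 of the 6 and 72 of the 4677, so a difference in response was not shown. Each call in Egr2 fl/fl cells was also lost without 1 of 3 Egr2 fl/fl libraries, among them 24-hour replicate 2 and basal replicate 2 for both (adjusted p up to 0.254).

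PPARg binding at these sites was called at 0 of 6 and at 0 of 4677 (0.0%) by limma between genotypes at 24 hours, while 670 sites, 1 of them near a lipid gene, had an unadjusted p under 0.05 (14.3% of all sites), and edgeR and DESeq2 called 2 each, 0 of them near a lipid gene. In the other PPARg comparisons limma also called 0 of the 6. There edgeR called 1 of the 6 for the interaction of genotype and IL-4, beside 10 of all sites, and 1 between genotypes at basal, beside 8. With IL-4 in Egr2 fl/fl cells edgeR and DESeq2 called 1 of the 6 each, beside 52 and 163 of all sites. At the Angptl4 site 2.4 kb downstream the replicates were far apart, with 165 and 975 tags in Egr2 fl/fl and 581 and 506 in LyzM-Cre Egr2 fl/fl cells at 24 hours, after 55.6 and 188 and 541 and 397 at basal. At the Plin2 site 16.7 kb upstream PPARg was 68.6 and 77.2 tags in Egr2 fl/fl and 13.9 and 20.7 in LyzM-Cre Egr2 fl/fl cells at 24 hours, and 15.5 and 32.4 and 19.2 and 0.0 at basal. There the 24-hour genotypes did not overlap, and the median log2 change over all sites was -1.28.

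**Figure D5:**
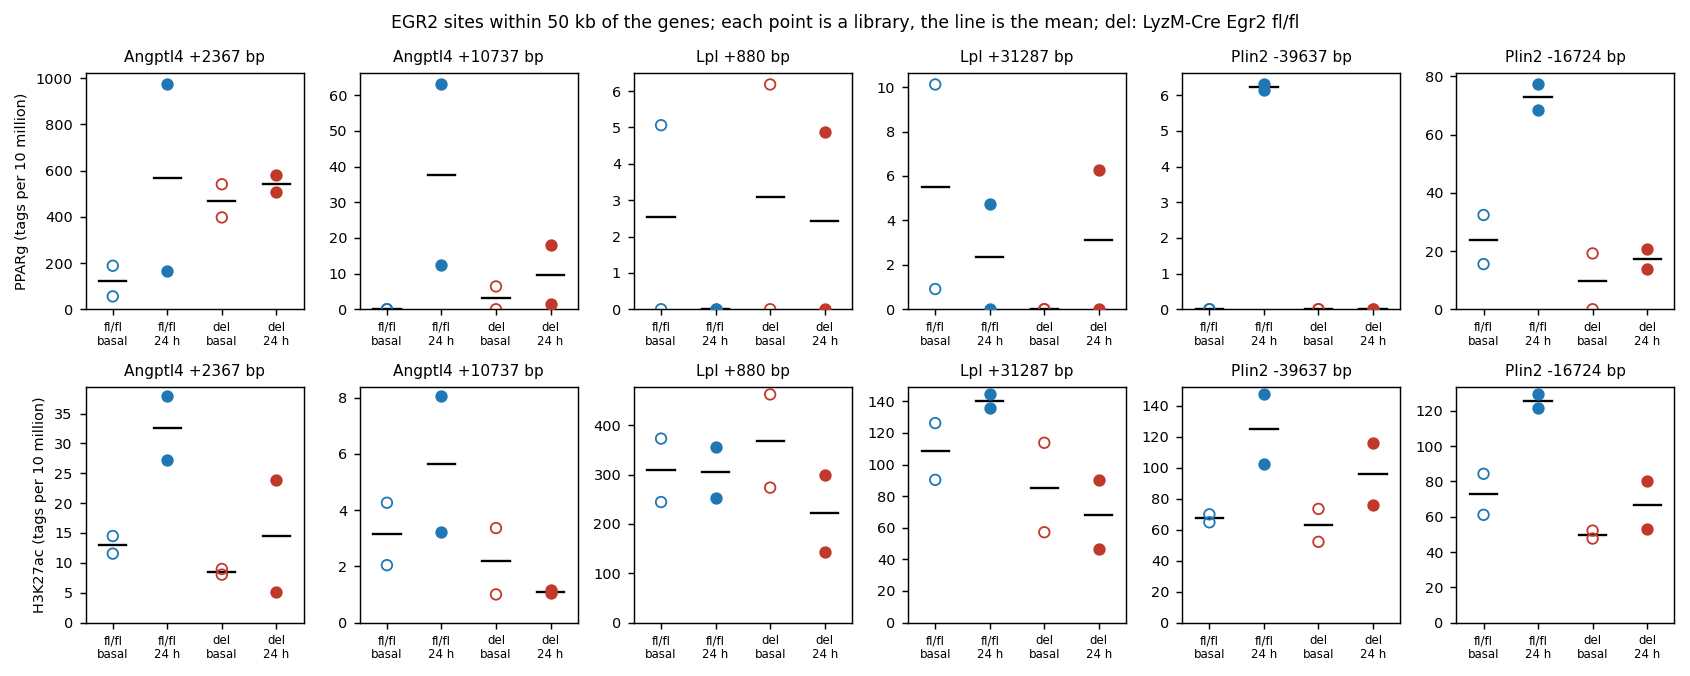
PPARg (top) and H3K27ac (bottom) tags per 10000000 at the 6 EGR2 sites near Lpl, Angptl4 and Plin2, for Egr2 fl/fl and LyzM-Cre Egr2 fl/fl cells at basal and at 24 hours of IL-4, 1 point per library. At the Plin2 site 16.7 kb upstream the 24-hour H3K27ac values are 121.6 and 129.7 in Egr2 fl/fl and 53.0 and 80.1 in LyzM-Cre Egr2 fl/fl cells.

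Other marks were called at 2 sites between genotypes at 24 hours. H3K4me2 was lower at the Angptl4 site 10.7 kb downstream, at 22.6 and 14.7 tags in Egr2 fl/fl and 5.05 and 7.69 in LyzM-Cre Egr2 fl/fl cells (-1.41 ± 0.48 SE, adjusted p = 0.0428 by limma), where 9.09% of all sites were called. PU.1 was lower at the Plin2 site 39.6 kb upstream at very low levels, 6.0 and 3.09 tags against 0.0 and 0.5 (adjusted p = 0.0474), where 9.45% were called. With the replicate block both calls were made (adjusted p = 0.0413 and 0.0434). At these 2 sites neither edgeR (adjusted p = 0.0561 and 0.0532) nor limma with median-ratio scaling (0.109 and 0.0733) made the call, and both were lost on leaving out any of the 4 libraries at 24 hours (adjusted p up to 0.375 and 0.334), the PU.1 call also without either basal Egr2 fl/fl library. Other sites were called in their place. H3K4me2 was higher in LyzM-Cre Egr2 fl/fl cells at the Lpl site 0.9 kb downstream, at 49.4 and 50.2 against 115.5 and 76.9 tags (0.91, adjusted p = 0.0524 by limma). The adjusted p there was 0.0498 by edgeR, where 9.6% of all sites were called. It was 0.0173 with median-ratio scaling, where 4.58% were called, and 0.0036 with the block, where 12% were. For PU.1 edgeR called the Angptl4 site 10.7 kb downstream lower (adjusted p = 0.0333), as 15% of all sites were called, at 84.8 and 61.2 against 46.8 and 44.9 tags. CEBPb, with 8.25% of all sites called, had 32.7 and 27.6 against 4.07 and 13.9 tags at the Angptl4 site, without a call. At the Plin2 site 39.6 kb upstream it had 13.9 and 10.6 against 4.07 and 0.0 tags, called with the block (-2.54, adjusted p = 0.0668 without and 0.0453 with it, beside 11.7% of all sites). With IL-4 in Egr2 fl/fl cells the block added an H3K4me2 call at the Angptl4 site 2.4 kb downstream (0.78, adjusted p = 0.132 without and 0.0242 with it), beside 10.7% of all sites. Pol II, with 1 library per group and no test, had 54.4 tags in Egr2 fl/fl and 7.99 in LyzM-Cre Egr2 fl/fl cells at the Lpl site 31.3 kb downstream.

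Of 43 further genes of fatty acid uptake, synthesis, droplets, lipolysis, oxidation and their regulators, 33 had a counted promoter in C57. For 24 hours against basal in C57, 0 of the 33 were called for H3K27ac or Pol II in the strain table, with a median log2 change of -0.43 for H3K27ac and -0.05 for Pol II. In the time course, H3K27ac was lower at 1 hour at Lpin2, a phosphatidate phosphatase of triglyceride synthesis (-2.51, adjusted p = 0.0185), at Lrp1, a lipoprotein receptor (-2.63, adjusted p = 0.0179), and at Slc27a1, a fatty acid transporter (-3.05, adjusted p = 0.0314), 3 of the 33 promoters beside the 8.36% of all regions called lower at that time, all by limma. It was higher at 6 hours at Mgll, a monoglyceride lipase (2.60, adjusted p = 0.0460 by limma), beside 2078 of all 77955 regions called higher. Pol II at Lpin2 was lower at 24 hours (-1.80, adjusted p = 0.0344 by limma), beside 136 of all 77955 regions called lower. In the other strains the call was H3K4me2 at Cidec, a droplet protein, in PWK (2.12, adjusted p = 0.0126 by limma), beside 187 of all 60175 regions called higher. In the other strains 29 to 31 of the 43 had a counted promoter, and the median log2 change of H3K27ac was -0.27 in BALB, -0.19 in NOD, -0.20 in PWK and -0.22 in SPRET, beside -0.30, -0.20, -0.18 and -0.09 for all regions. The promoter of Pparg, the receptor gene itself, was in the list and was called in no strain, with H3K27ac log2 changes of 0.27 in C57, 0.84 in BALB, 1.34 in NOD, 0.70 in PWK and 0.44 in SPRET (adjusted p from 0.377 in NOD to 0.770 in BALB by limma).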

How the data were processed

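ChIP-seq of histone marks, Pol II and the factors PPARg, EGR2, STAT6, PU.1 and CEBPb was analysed in 267 samples of 138 groups, taken from the labels. Per the study's methods, the authors mapped reads with bowtie2 (strain genomes shifted to mm10 with MMARGE), counted them with HOMER and called reproducible peaks with IDR. The deposited tables hold signal: tags scaled by the authors to 10000000 per library, in 1000 bp around accessible centres (300 bp for factors in the Egr2 genotypes). Multiplied by library totals, 100.0% of 7268918 values gave whole reads within 0.1 read. The 54 deposited peak lists, 1 per group, hold an IDR score and a tag count made by the authors, whose scale is not stated, and 100 samples enter only through them. A total of 4 value columns matched no sample and were left out.

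Scripts in R 4.3.3 and Python 3.11.15 fitted limma 3.58.1 (trend) to log2(tags + 1) on each whole table, with Benjamini-Hochberg adjustment and a threshold of 0.05. Alternatives were DESeq2 1.42.0 and the quasi-likelihood test of edgeR 4.0.16 on recovered reads, a pseudocount of 5, a filter of 16 tags, median-ratio scaling, a 25 kb window, a replicate block and each library left out. The limma fit was also run on simulated tags with a planted change. These held no replicate effect and no shift in the share of tags inside regions, so that run does not bear on either. Named regions were, for each gene, the promoter within 1 kb, the distal region with most H3K27ac, the region at the strongest 24-hour C57 PPARg peak, and any region called or passing the fold rule. Values of other regions were chosen after they were seen. Overlaps of at least 1 bp (bedtools 2.31.1) counted as shared. The genes and gene lists were chosen with earlier results of these data known.

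Replicate numbers come from the sample titles. Deviations from group means correlated above 0 in every same-numbered pair for Pol II of C57 (r = 0.215 to 0.429), PWK (0.529 to 0.682) and SPRET (0.475 to 0.517), with 3 pairs each. They also did in the time course (0.117 to 0.422). In PWK and in SPRET 6 of 6 libraries correlated best with their own number, so numbers were taken to pair these libraries. Only 3 of 6 did in C57 and 4 of 9 in the time course, so pairing by number is uncertain there. In the Egr2 genotypes every same-numbered pair was also above 0 for H3K27ac (0.231 to 0.508), H3K4me2 (0.125 to 0.256), CEBPb (0.258 to 0.376), PU.1 (0.126 to 0.195) and STAT6 (0.215 to 0.415), with 12 pairs of 4 groups. This did not hold for PPARg (from -0.02). In a group of 2 libraries the deviations are mirror images. Both same-numbered pairs of 2 such groups therefore give the same value and are not separate evidence. Other comparisons had 2 pairs or a pair under 0.1. Those with 2 pairs were also above 0. Across strains these were 0.507 to 0.729 for H3K27ac, 0.211 to 0.470 for H3K4me2 and 0.515 to 0.732 for H3K4me3. Pol II had 0.441 to 0.521 in BALB and 0.628 in NOD. The main fits used no pairing.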

Additional observations from a re-analysis of the deposited data

How the results depend on the processing

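Counts of called lipid gene regions depended on the setting. H3K27ac across strains had 0 calls with limma, 1 with median-ratio scaling, 34 with a replicate block (24 of them in C57, where it called 38.0% of all regions) and 0 to 3 on leaving out a library (3 without BALB 24-hour replicate 1). Pol II across strains had 2 calls, 22 with a replicate block, 4 with DESeq2, 1 in the 25 kb window and 0 to 3 on leaving out a library (0 without SPRET 24-hour replicate 1 or 2). H3K4me2 had 0 calls, 12 with a replicate block, 3 with DESeq2 and 0 to 31 on leaving out a library (31 without C57 24-hour replicate 1, 23 without BALB 24-hour replicate 1). H3K4me3 had 0 calls, 21 with a replicate block and 0 to 0 on leaving out a library. The H3K27ac time course had 17 calls, 6 with median-ratio scaling, 28 with a replicate block and 0 to 36 on leaving out a library. Pol II in the time course had 1 call, 0 with the filter of 16 tags, 2 with DESeq2, 0 in the 25 kb window, 1 with the replicate block and 0 to 2 on leaving out a library. The EGR2 time course had 0 calls, 0 with a replicate block and 0 to 4 on leaving out a library (4 without 1-hour replicate 2). The Egr2 genotypes had 4 calls, 7 with a pseudocount of 5, 2 with the filter of 16 tags, 1 with median-ratio scaling, 8 with a replicate block, 2 with DESeq2, 2 in the 25 kb window and 2 to 6 on leaving out a library. Beyond the Pol II pairs of C57, PWK, SPRET and the time course and all but the PPARg pairs of the Egr2 genotypes, pairing rests on 2 pairs or includes a pair under 0.1. Where both groups held 2 libraries, the 2 pairs gave the same value. For Pol II only 3 of 6 libraries in C57 and 4 of 9 in the time course correlated best with their own number, so pairing is uncertain there. In the 2-pair comparisons same-numbered libraries also deviated together, at r = 0.507 to 0.729 for H3K27ac across strains. All 12 H3K4me2 calls with the block were in SPRET, where it called 16722 of 54755 regions. For H3K4me3, 11 of the 21 were in C57, beside 11526 of 67742. In the H3K27ac time course, 20 of the 28 were at 1 hour, beside 20095 of 77955. For Pol II in C57 and in the time course the block changed no call. The PPARg excess of 67 peaks at 24 hours was 10 with lists of equal length, 46 in the best 50% of each list and 45 within 25 kb. The causes were not tested. Over 27 single results and 356 alternatives, 222 kept their direction and side of the threshold, 134 kept the direction and lost the call, and 0 reversed. These single results were mainly the calls of the main fits, so they could keep or lose a call but not gain one. Calls gained at other regions are not in these counts, nor are sign changes there, as for H3K27ac at a Plin2 region in PWK. With 2 libraries in most groups, depth of 1 tag per 0.469 to 2.91 reads limits the regions of a few tags, such as the PU.1 site.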
